A study of Mus musculus with 6 samples.

Results

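The genes described here are 8 that encode proteins of 3 programmed cell death routes: the caspases Casp1, Casp6, Casp8, Casp9 and Casp12, the necroptosis kinase Ripk3 and its substrate Mlkl, and the pore-forming gasdermin Gsdmd. They were taken by symbol from a table of 46095 rows, and all 8 were found and were among the 15367 genes with enough counts to be tested. RNA was sequenced from 6 mouse kidney samples on a C57BL/6 background, 3 labelled DHT (dihydrotestosterone, an androgen that aromatase does not convert to oestrogen) and 3 labelled control. The strain label reads PCOS mouse in both groups, so only the treatment label separates the groups; PCOS stands for polycystic ovary syndrome, which DHT exposure is used to model in mice. The sources used here do not give age, dose, duration or whether each sample is a separate animal, so the spread behind each p-value is that between samples and may be technical. The study's title asks about inflammation and apoptosis of renal tubular cells downstream of tumour necrosis factor (TNF).

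Caspases are proteases made as inactive precursors, so RNA level is not caspase activity. Casp8 starts apoptosis at death receptors such as the TNF receptor, Casp9 starts it on the apoptosome after cytochrome c leaves mitochondria, and Casp6 cleaves lamins further down. Casp1 is the inflammasome protease that matures interleukin 1 beta and cuts gasdermin D, whose free end forms pores in the plasma membrane (pyroptosis). Casp12 is an inflammatory-type caspase placed at the endoplasmic reticulum (ER) in rodents. When Casp8 is blocked, RIPK3 can phosphorylate MLKL, which then permeabilises the membrane (necroptosis). Casp1 and gasdermin D are known for high expression in macrophages.

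None of the 8 genes passed the test between DHT and control kidneys. After their values were seen, they were sorted into 2 patterns by whether DHT replicate 2 was their highest library. Casp8, Casp9 and Casp6, the apoptotic caspases, were moderately expressed, with coefficients of variation of 6.78% to 7.53% within DHT. Within control that of Casp8 was 17.7%, above those of Casp1, Casp12 and Mlkl (6.20%, 12.3% and 14.6%). Casp8 was the member nearest to the threshold, 1.39-fold higher in DHT with all 3 DHT libraries above all 3 controls. Casp1, Casp12, Ripk3, Mlkl and Gsdmd were lower expressed, and each had its highest value of all 6 libraries in DHT replicate 2. That library was also highest for 13 of 14 macrophage and monocyte markers. It was likewise highest for 5 of 5 red blood cell, 6 of 8 endothelial, 6 of 8 lymphocyte and 4 of 5 podocyte markers. Of all genes tested, 15.2% were highest there.

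Libraries held between 15.05 and 19.33 times 1e6 counts. Kidney identity was checked with 10 proximal tubule markers, which summed to 13300 to 22200 counts per 1e6 (CPM) with none at 0. Levels are CPM on library sizes scaled by the trimmed mean of M values (TMM). Over all genes, 437 of 15367 passed edgeR's quasi-likelihood test at a Benjamini-Hochberg adjusted p of 0.05, which is 2.84%. That number was 1224, or 7.76% of the genes tested, without DHT replicate 2 and 0 without DHT replicate 3. It was 7 without control replicate 2, 19 without DHT replicate 1 and 89 without control replicate 3.

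Of the members, 0 of 8 were called by edgeR, 0 by DESeq2 and 0 by limma-voom. At an unadjusted p of 0.05 edgeR gave 1 of 8, Casp8, where 23.9% of all genes tested were below that value. The groups did not overlap for 1 of 8, again Casp8, while 29.8% of all genes tested had groups that did not overlap and 14.8% had DHT above. The fitted log2 fold changes ran from -0.17 for Casp12 to 0.47 for Casp8, with a median of 0.24 beside 0.003 over all genes tested. These shares do not set the members apart from the other genes.

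The promoters of 3 members are shown because their genes carry these patterns: Casp8, the member nearest to a difference, and Casp1 and Casp12, which lie in the same cluster on chromosome 9 and both peaked in DHT replicate 2. Each is the 250 bases before the RefSeq start on GRCm38.p6, 5′ to 3′ on the gene's strand, at chr1:58802252-58802501, chr9:5298267-5298516 and chr9:5345226-5345475. The Casp8 window lies inside the gene's span (58795374 to 58847503, plus strand), so it precedes a start downstream of the first one. The end of the Casp12 window, at 5345475, also lies inside that gene's span, which begins at 5345430 on the plus strand. Only 1 start a gene was searched. Capitals mark matches to any of 4 motifs searched on both strands.
Casp8: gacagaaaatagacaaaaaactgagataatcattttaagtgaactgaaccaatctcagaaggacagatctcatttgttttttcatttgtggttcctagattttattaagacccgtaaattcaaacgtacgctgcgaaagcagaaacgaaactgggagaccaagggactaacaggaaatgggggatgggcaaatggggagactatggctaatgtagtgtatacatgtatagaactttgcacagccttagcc
Casp1: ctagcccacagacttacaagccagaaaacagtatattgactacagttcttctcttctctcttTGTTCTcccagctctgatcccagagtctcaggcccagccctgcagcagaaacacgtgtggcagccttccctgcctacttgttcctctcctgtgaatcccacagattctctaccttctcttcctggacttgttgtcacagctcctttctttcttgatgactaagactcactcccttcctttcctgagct
Casp12: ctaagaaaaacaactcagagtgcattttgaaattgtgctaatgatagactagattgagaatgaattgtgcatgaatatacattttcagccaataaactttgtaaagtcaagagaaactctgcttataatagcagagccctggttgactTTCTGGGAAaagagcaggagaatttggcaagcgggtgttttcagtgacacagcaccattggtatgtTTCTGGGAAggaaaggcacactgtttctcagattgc
The motifs were the gamma-activated sequence bound by STAT factors (TTCNNNGAA, a palindrome), the interferon-stimulated response core (GAAANNGAA), the NF-kB site and the androgen response half-site (AGAACA). RefSeq's table held 7 of the 8 members, and Gsdmd was not matched. Casp12 held 2 gamma-activated sequences, with first bases 102 and 36 before the start, where 7.02% of 32851 promoters held at least 1. The match at 36 lies inside the gene's span, downstream of its first base. Casp1 held 1 androgen half-site on the opposite strand, a motif in 16.1% of promoters. The Casp6, Casp8, Casp9, Mlkl and Ripk3 windows held none of the 4, and the interferon core and NF-kB site stood in 7.13% and 3.90% of promoters. The motifs were chosen after the values were seen, and a match describes letters, not binding.

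Casp8 (chromosome 1, 58795374 to 58847503, GRCm38, 11 exon blocks) encodes the initiator caspase of death receptors. It stood at 39.9, 34.8 and 37.5 CPM in DHT replicates 1, 2 and 3 and at 29.0, 30.4 and 21.5 CPM in control replicates 1, 2 and 3. Every DHT library lay above every control, and the lowest was control replicate 3. The means were 37.4 ± 2.54 and 27.0 ± 4.77 CPM (SD, n = 3 each), from 1823 and 1492 counts. The log2 fold change was 0.47 ± 0.15 SE with a 95% interval of 0.13 to 0.81, and the edgeR adjusted p was 0.109. Without DHT replicate 2 the log2 fold change of Casp8 was 0.51 (edgeR adjusted p = 0.0984), and over 14 other settings its adjusted p ran from 0.0877 to 0.255. DHT replicate 2 was the lowest DHT library for Casp8, so leaving it out raises the difference by construction. The transcript is 89.0% identical over 34.9% of its length to Gm20257, which had 17 to 41 counts per library beside 435 to 635 for Casp8.

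Casp9 (chromosome 4, 141793612 to 141815976) encodes the initiator caspase of the apoptosome. It stood at 41.8, 40.8 and 36.2 CPM in DHT replicates 1, 2 and 3 and at 32.7, 36.5 and 35.9 CPM in controls 1, 2 and 3. The groups met at DHT replicate 3 and control replicate 2. The difference was 0.17 ± 0.11 log2 (95% interval -0.08 to 0.43, edgeR adjusted p = 0.371), so a rise of more than 0.43 log2 lay outside the interval. Of its exonic bases 1.8% overlap Cela2a or Ctrc on the other strand, and the sources used here do not say whether counting used the strand.

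Casp6 (chromosome 3, 129901425 to 129914103) encodes a caspase that cleaves nuclear lamins. It stood at 20.7, 21.8 and 23.9 CPM in DHT replicates 1, 2 and 3 and at 19.1, 23.8 and 21.7 CPM in controls 1, 2 and 3. The groups overlapped throughout, and the log2 fold change of 0.04 had an interval of -0.27 to 0.34 (edgeR adjusted p = 0.882). Among the members this was the narrowest interval after that of Casp9. Its sign turned with total counts, without control replicate 1 and without DHT replicate 3.

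Gsdmd (chromosome 15, 75862327 to 75867408) encodes gasdermin D, the pyroptosis pore. It stood at 3.39, 10.3 and 3.26 CPM in DHT replicates 1, 2 and 3 and at 4.86, 4.67 and 6.83 CPM in controls 1, 2 and 3. DHT replicate 2 was the highest library, and the other DHT libraries were the lowest of all 6. The fitted log2 fold change was therefore small and imprecise, 0.05 with an interval of -1.0 to 1.10 (edgeR adjusted p = 0.953). Without DHT replicate 2 it was -0.72 with an interval of -1.38 to -0.06 (edgeR adjusted p = 0.159). Leaving out the highest DHT library lowers the value by construction, so this interval is not a test of DHT.

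Casp1 (chromosome 9, 5298517 to 5307265) encodes the inflammasome protease. It stood at 0.691, 3.63 and 2.31 CPM in DHT replicates 1, 2 and 3 and at 1.66, 1.87 and 1.83 CPM in controls 1, 2 and 3. The controls differed by little, with a coefficient of variation of 6.20%, while the DHT libraries spanned both the lowest and the highest value, with 66.6%. The log2 fold change was 0.31 with an interval of -0.88 to 1.49 (edgeR adjusted p = 0.755), and -0.25 without DHT replicate 2 (adjusted p = 0.785).

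Casp12 (chromosome 9, 5345430 to 5373032), an inflammatory-type caspase, lies downstream of Casp1 on the same strand with Casp4 between them. It stood at 1.26, 4.13 and 1.54 CPM in DHT replicates 1, 2 and 3 and at 2.58, 2.28 and 2.92 CPM in controls 1, 2 and 3. As for Gsdmd, DHT replicate 2 was above all controls and the other DHT libraries were below them. The log2 fold change was -0.17 (interval -1.22 to 0.88, edgeR adjusted p = 0.849). Without DHT replicate 2 it was -0.90 (interval -1.70 to -0.09, edgeR adjusted p = 0.153). This fall too follows from leaving out the highest library, so the interval is not a test of DHT.

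Mlkl (chromosome 8, 111311797 to 111338177) encodes the membrane-permeabilising end point of necroptosis. It stood at 2.14, 3.76 and 1.42 CPM in DHT replicates 1, 2 and 3 and at 1.78, 1.71 and 2.23 CPM in controls 1, 2 and 3. DHT replicate 2 was again highest and DHT replicate 3 lowest. The log2 fold change was 0.35 (interval -0.57 to 1.27, edgeR adjusted p = 0.63), and -0.11 without DHT replicate 2.

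Ripk3 (chromosome 14, 55784995 to 55788865) encodes the kinase that activates MLKL. It had the fewest counts, with 19, 28 and 14 in the DHT libraries and 10, 21 and 24 in the controls, in replicate order, or 1.19, 1.75 and 0.831 CPM against 0.615, 1.09 and 1.19 CPM. Counting error alone was wide: the exact Poisson 95% interval was 4.80 to 18.4 for the 10 counts of control replicate 1 and 18.6 to 40.5 for the 28 counts of DHT replicate 2. The groups overlapped, with a log2 fold change of 0.37 (interval -0.63 to 1.37, edgeR adjusted p = 0.642), and 0.05 without DHT replicate 2. A change of 2-fold upward in either necroptosis effector, Mlkl or Ripk3, lay inside its interval, so these data do not exclude it.

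**Figure D1:**
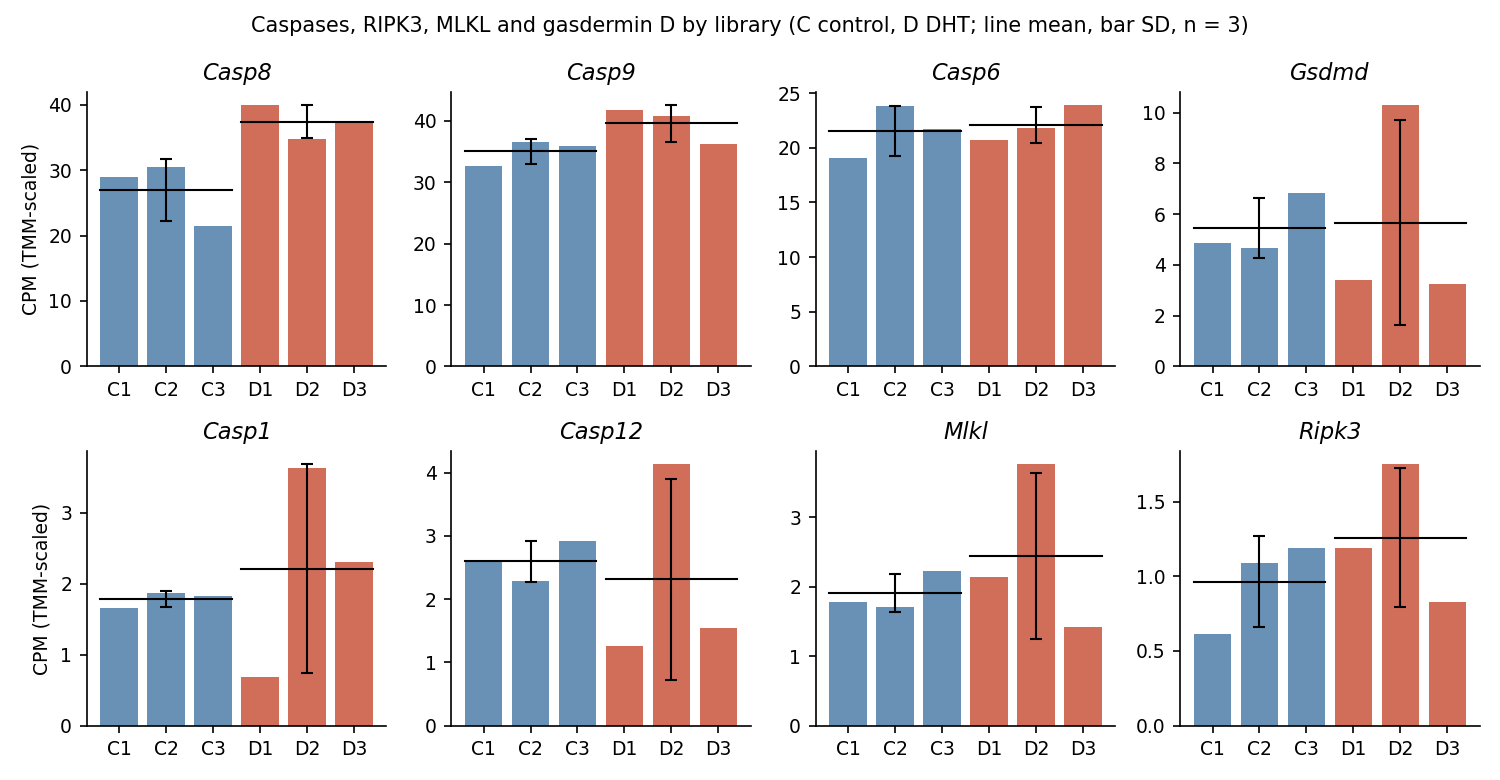
Bars give the level of each member in CPM (TMM-scaled library sizes) in control (C1 to C3, blue) and DHT (D1 to D3, red) libraries; black lines are group means and error bars SD (n = 3). All DHT bars of Casp8 lie above the control bars, from 34.8 against at most 30.4 CPM, and DHT replicate 2 is the tallest bar for Gsdmd, Casp1, Casp12, Mlkl and Ripk3.

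**Figure D2:**
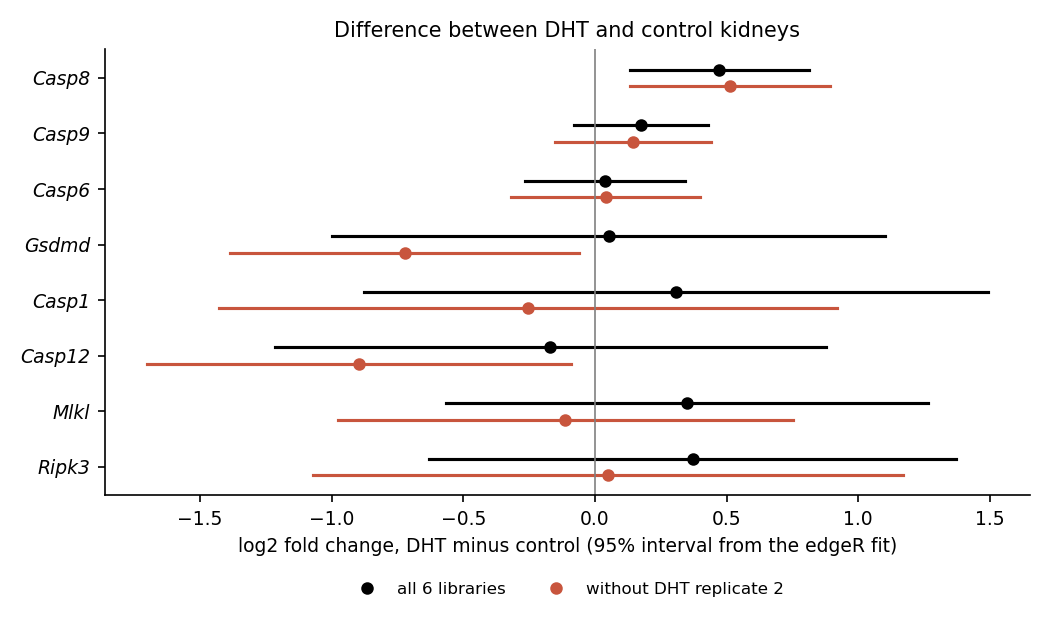
Points give the log2 fold change, DHT minus control, and lines its 95% interval from the edgeR fit, with all 6 libraries (black) and without DHT replicate 2 (red). The Casp8 interval stays above 0 in both fits. The Gsdmd point moves from 0.05 to -0.72 and the Casp12 point from -0.17 to -0.90 when that library, the highest for both, is left out.

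Without DHT replicate 2, 0 of the 8 members were called, where the share of all genes called was 7.76%. The points of Casp1, Mlkl and Gsdmd changed sign, those of Casp12 and Gsdmd moved by more than 0.7 log2, and Casp6, Casp8 and Casp9 moved by less than 0.05 log2. On the log2 scale, the median of Casp1, Casp12, Ripk3, Mlkl and Gsdmd relative to the control mean was 0.93 in DHT replicate 2 and -0.65 and -0.39 in DHT replicates 1 and 3. In controls 1, 2 and 3 the same median was -0.10, -0.14 and 0.22. For Casp6, Casp8 and Casp9 it was 0.25, 0.22 and 0.16 in DHT replicates 1, 2 and 3. The members did not all follow these medians: Ripk3 and Mlkl were at 0.32 and 0.16 in DHT replicate 1, and Casp1 was at 0.36 in DHT replicate 3. DHT replicate 2 was the highest library for 5 of 8 members, and for 15.2% of all genes tested. These 5 were grouped after their values were seen, for being highest there. Their median in that library therefore restates the grouping. So do the fall of their points without it and the contrast with Casp6, Casp8 and Casp9.

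Levels were compared between genes as counts per kb of exon per 1e6 counts. By the median over 6 libraries the order was Casp8 at 11.3, Casp9 at 6.99, Casp6 at 3.90 (3.42 to 4.28 over the libraries), Gsdmd at 2.01, Casp1 at 1.24, Mlkl at 0.851, Casp12 at 0.633 and Ripk3 at 0.497. Only Casp9 and Casp6 were neighbours with separate ranges, 6.29 at the lowest against 4.28 at the highest. The ranges of the other 6 neighbouring pairs overlapped, although Casp8 exceeded Casp9 and Mlkl exceeded Casp12 in 6 of 6 libraries. The other 4 orders held in 5 of 6 libraries.

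**Figure D3:**
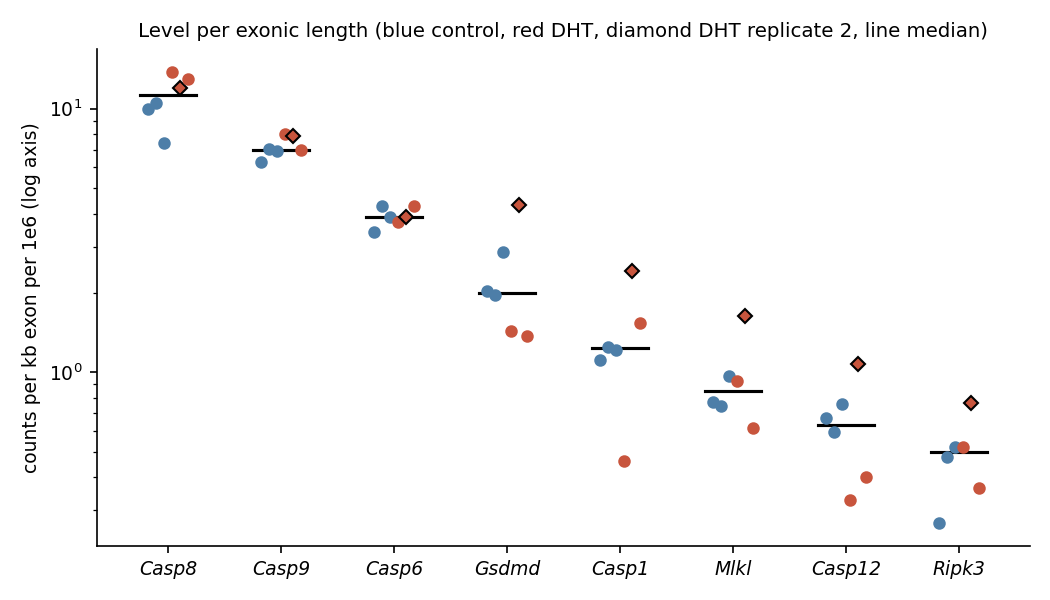
Each point is 1 library's level per exonic length on a log axis (blue control, red DHT, diamond DHT replicate 2), and the line is the median of 6. The genes run from Casp8 at a median of 11.3 to Ripk3 at 0.497 counts per kb per 1e6, and the diamond is the top point for the 5 lowest genes.

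DHT replicate 2 also stood highest for the summed markers of some other cell types. It was not highest for proximal tubule, distal tubule, principal cell or mesenchymal markers. Loop of Henle markers were lowest there (6380 against 6740 to 14700 CPM), and intercalated cell markers highest (515 against 372 to 503 CPM). The 14 macrophage and monocyte markers, Ptprc, Cd68, Csf1r, C1qa and Lyz2 among them, were all detected and summed to 793 CPM in DHT replicate 2. The sum was 259 and 526 CPM in DHT replicates 1 and 3 and 250, 324 and 483 CPM in controls 1, 2 and 3, and 0 of 14 markers were called. Casp1 was low in DHT replicate 1 and high in DHT replicates 2 and 3, in the same order as that sum within the DHT group, whereas Gsdmd and Casp12 in DHT replicate 3 were below every control although the sum there was above every control. The 8 endothelial markers summed to 831 CPM in DHT replicate 2, 476 and 482 CPM in DHT replicates 1 and 3, and 485, 517 and 621 CPM in controls 1, 2 and 3, with 1 of 8, Ehd3, called higher and none at 0. The order of Gsdmd levels followed this sum except that controls 1 and 2, and DHT replicates 1 and 3, changed places. Red blood cell markers summed to 70.3 CPM in DHT replicate 2, 2.89 and 4.51 CPM in DHT replicates 1 and 3, and 7.82 to 37.5 CPM in controls. Lymphocyte markers summed to 16.6 CPM in DHT replicate 2 against 6.09 to 11.4 CPM in the other 5 libraries, and neutrophil markers to 9.21 against 2.72 to 5.75 CPM. Podocyte markers summed to 811 CPM in DHT replicate 2 against 543 to 704 CPM, with 4 of 5 highest there. In whole kidney, fewer cells of a type and less RNA per cell cannot be told apart, and beyond relations across the 6 libraries the part of these cells in the results was not tested.

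Over 6 libraries, 16 relations were computed between a member's log2 CPM and the log2 sum of macrophage or endothelial markers. The highest Pearson r was that of Gsdmd with endothelial markers (Pearson r = 0.947, exact permutation p = 0.00833; Spearman rho = 0.886, exact permutation p = 0.0333), with a Benjamini-Hochberg adjusted p of 0.133 for r and 0.178 for rho. Leaving out DHT replicate 2 and control replicate 3, the libraries farthest from the median of the sum, r was 0.626. The highest Spearman rho was that of Casp12 with endothelial markers (rho = 0.943, exact permutation p = 0.0167, adjusted 0.178), with r = 0.838 (exact permutation p = 0.0292, adjusted 0.156) and r = 0.588 without the same 2 libraries. For Casp1 with macrophage markers r was 0.816 (exact permutation p = 0.0389, adjusted 0.156) and rho 0.886 (exact permutation p = 0.0333, adjusted 0.178), and r was 0.833 without DHT replicate 2 and control replicate 1. For Mlkl with endothelial markers r was 0.90 (exact permutation p = 0.0319, adjusted 0.156) and rho 0.60 (exact permutation p = 0.242, adjusted 0.553), and r was -0.193 without the 2 farthest libraries, so it rested on them. Casp8 had r of -0.022 with macrophage and -0.20 with endothelial markers (exact permutation p = 0.969 and 0.626). None of the 16 passed adjustment, and 3 libraries a group are too few for a value within groups. The endothelial markers were chosen for this after their values were seen, and the adjustment over 16 relations does not cover that choice. Gsdmd, Casp12 and Mlkl were grouped for peaking in DHT replicate 2, where this sum was also highest, so their p are descriptive. Casp1 was grouped for the same peak, and the macrophage sum was highest in that library too. The p of Casp1 with macrophage markers are therefore descriptive as well.

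**Figure D4:**
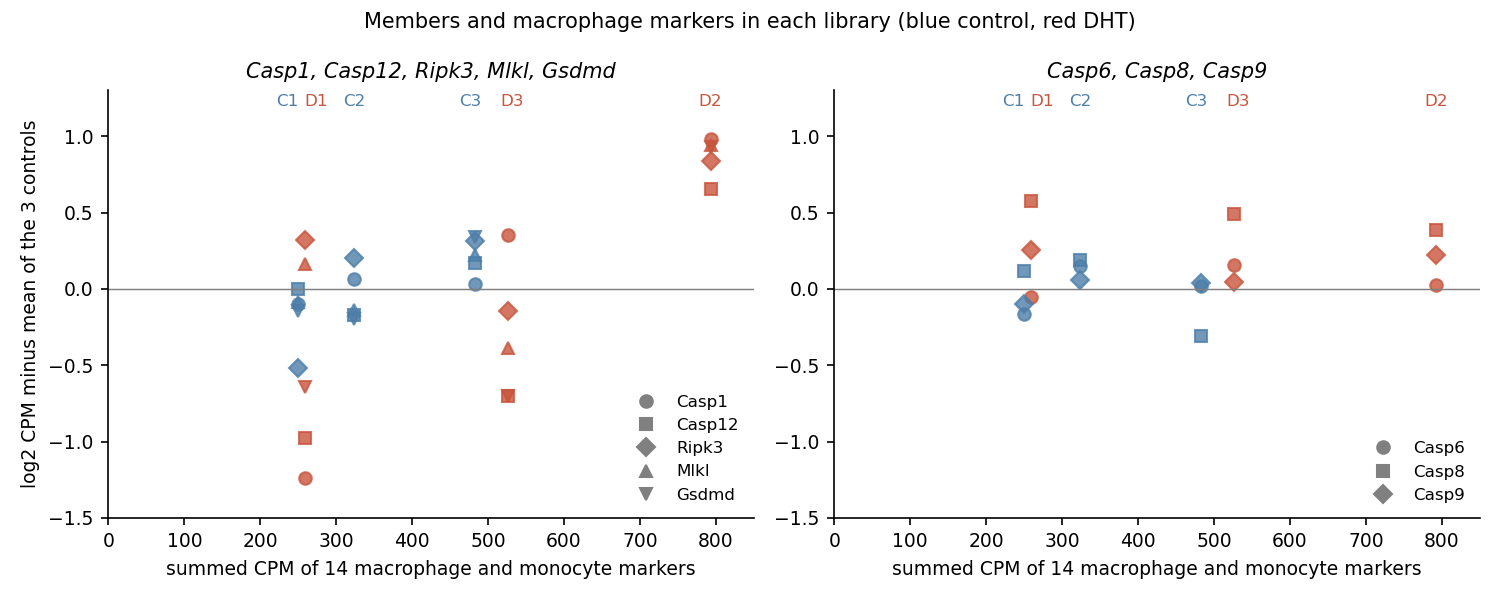
The x axis is the summed CPM of 14 macrophage and monocyte markers and the y axis each member's log2 CPM minus the mean of the 3 controls, 1 point a gene and library (blue control, red DHT; library names at the top). At 793 CPM, in DHT replicate 2, the 5 genes on the left lie between 0.66 and 0.98, while at 526 CPM, in DHT replicate 3, Gsdmd and Casp12 lie at -0.70.

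The genes whose log2 CPM followed each member most closely over the 6 libraries, among 14212 with a mean of at least 1 CPM, are given as a description. Irf8, a transcription factor of the monocyte lineage, followed Casp12 at Pearson r = 0.997, with Zscan12 at the same value. Gsdmd was followed by Cdk17 (r = 0.999) and by Irf1, an interferon-induced transcription factor (r = 0.995). Casp1 was followed by Coro2b (r = 0.994) and by Cd48, a leukocyte surface protein (r = 0.989). Ripk3 was followed by Bvht (r = 0.998) and Fgd2 (r = 0.982), and Mlkl by Zwilch (r = 0.991) and Egfl7, a gene of endothelial cells (r = 0.989). Casp8 was nearest to Serpinc1, the antithrombin gene (r = 0.998), and Wdr31 (r = 0.997), Casp9 to Dnajc7 (r = 0.988) and Erh (r = 0.983), and Casp6 to Uvrag (r = 0.973) and Glul, glutamine synthetase (r = 0.965). With 6 libraries and this many genes, values near 1 arise readily, and all libraries share depth scaling. Among the members, Casp12 and Gsdmd were the closest pair (r = 0.954), followed by Mlkl and Gsdmd (r = 0.848), Casp9 and Ripk3 (r = 0.818) and Ripk3 and Mlkl (r = 0.813). Casp12, Gsdmd, Mlkl and Ripk3 were grouped for peaking in DHT replicate 2, so r among these genes partly restates the grouping. The pair of Casp9 and Ripk3 joins genes of the 2 patterns, and pairs within the 5 genes were as low as r = 0.255 for Casp1 and Ripk3 and 0.35 for Casp1 and Mlkl. Within the other pattern, Casp6 was at r = 0.136 with Casp8 and 0.174 with Casp9, and Casp8 and Casp9 were at 0.562.

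Among other caspases, Casp2, a stress-activated caspase, averaged 18.8 ± 2.86 CPM with DHT against 21.3 ± 1.12 CPM in control (n = 3 each, edgeR adjusted p = 0.476). Casp4, the mouse sensor of intracellular lipopolysaccharide that lies between Casp1 and Casp12, had its highest value in DHT replicate 2 as they did, 3.07 CPM against 0.882 to 2.34 CPM in the other libraries. Casp14 had 0 counts in all 6 libraries.

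Around Casp9, 0 of 11 apoptosome and inhibitor genes were called (2 with an unadjusted p under 0.05, both higher), and their median log2 fold change was 0.21. Over all genes tested, 2.84% were called, 23.9% had an unadjusted p under 0.05 and 29.8% had groups that did not overlap. The last share applies to each gene below given as without overlap. DESeq2 called 1533 genes in all, where edgeR called 437, and this applies to each DESeq2 adjusted p below. Apaf1, the scaffold of the apoptosome, was at 5.09, 8.83 and 4.81 CPM in DHT replicates 1, 2 and 3 and at 7.05 ± 0.558 CPM in control (n = 3), highest in DHT replicate 2. Its log2 fold change was -0.18 with all libraries and -0.52 without that library (edgeR adjusted p = 0.732 and 0.19). Cycs, cytochrome c, was at 35.2 ± 12 and 25.7 ± 5.05 CPM, and Diablo, which frees caspases from their inhibitors, at 50 ± 2.89 and 42.2 ± 2.94 CPM (edgeR adjusted p = 0.304 and 0.212). The nuclease Endog, which leaves mitochondria in apoptosis, stood at 24.9, 19.9 and 37.0 CPM with DHT against 13.2, 14.5 and 18.5 CPM in control, without overlap (log2 fold change 0.82 ± 0.24 SE, edgeR adjusted p = 0.0892). Endog was the gene of this list that DESeq2 called (adjusted p = 0.0214), and edgeR called it without DHT replicate 2 (adjusted p = 0.0314). That library was the lowest of the DHT group for Endog, so leaving it out raises the difference by construction. The fit without it called 7.76% of all genes tested. Birc5, or survivin, a mitotic inhibitor of apoptosis protein, had 98 counts in DHT and 42 in control (log2 fold change 1.37 ± 0.54 SE, edgeR adjusted p = 0.167).

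Among caspase substrates and nucleases, 0 of 9 were called (3 with an unadjusted p under 0.05, 2 higher and 1 lower), with a median of -0.03. The shares over all genes tested were 2.84% called and 23.9% under that unadjusted p. Acin1, a nuclear protein cleaved by caspases, averaged 110 ± 3.98 CPM with DHT against 148 ± 4.47 CPM in control, without overlap (log2 fold change -0.43 ± 0.11 SE, edgeR adjusted p = 0.0634, DESeq2 0.015). Gas2, a cytoskeletal substrate of caspases, was at 604, 269 and 509 CPM in DHT replicates 1, 2 and 3 and at 289, 244 and 190 CPM in controls 1, 2 and 3. DHT replicate 2 was the DHT library that overlapped the controls, and the edgeR adjusted p of Gas2 was 0.115 with it and 0.012 without it (DESeq2 0.0109 with all). It was the lowest DHT library for Gas2, so leaving it out raises the difference by construction. The fit without it called 7.76% of all genes tested. Lmna, a lamin that Casp6 cleaves, was at 66.4 ± 6.47 and 51.7 ± 5.39 CPM (log2 fold change 0.36 ± 0.13 SE, edgeR adjusted p = 0.132).

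Around Casp8 and Ripk3, 0 of 13 partners in the death receptor complex and necrosome were called (2.84% of all genes tested). An unadjusted p under 0.05 was found for 0 of them (23.9% of all genes tested), and DESeq2 and limma-voom called 0. Their median log2 fold change was 0.12. Ripk1, the kinase that recruits RIPK3, averaged 39.1 ± 1.49 CPM with DHT against 36.2 ± 1.2 CPM in control (n = 3 each), a difference of 0.11 ± 0.10 log2 (SE; edgeR adjusted p = 0.53). Fadd, the adaptor that binds Casp8, was at 18.1 ± 0.984 and 17.3 ± 1.76 CPM, and Cflar, the catalytically inactive relative that restrains Casp8, at 134 ± 6.02 and 123 ± 12.9 CPM (edgeR adjusted p = 0.795 and 0.568). Zbp1, a nucleic acid sensor that can activate RIPK3, was at 2.95, 5.01 and 2.55 CPM in DHT replicates 1, 2 and 3 and at 2.40, 2.23 and 4.50 CPM in controls 1, 2 and 3, highest in DHT replicate 2. The log2 fold changes were 0.27 for Tradd, the adaptor at TNF receptor 1, 0.19 for Ticam1, the adaptor of Toll-like receptor 3, and 0.24 for Pgam5, a mitochondrial phosphatase (edgeR adjusted p = 0.46, 0.409 and 0.31).

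Around Casp1 and Gsdmd, 12 of 17 inflammasome and pyroptosis genes found in the table were tested and 0 were called (2 with an unadjusted p under 0.05, 1 in each direction), with a median of 0.24. Of all genes tested, 2.84% were called and 23.9% were under that unadjusted p. Il1b, the cytokine that Casp1 matures, was at 1.63, 10.8 and 2.14 CPM in DHT replicates 1, 2 and 3 and at 1.97, 0.726 and 2.62 CPM in controls 1, 2 and 3. DHT replicate 2 alone exceeded the controls, and the log2 fold change was 1.45 with it and 0.08 without it (edgeR adjusted p = 0.314 and 0.939). Il18, the other cytokine that Casp1 matures and one that epithelium also makes, followed another order, at 3.96, 2.25 and 2.73 CPM with DHT against 1.66, 1.61 and 0.841 CPM in control. Its groups did not overlap, and its log2 fold change was 1.12 ± 0.39 SE with all libraries and 1.28 without DHT replicate 2 (edgeR adjusted p = 0.129 and 0.0942). DHT replicate 2 was the lowest DHT library for Il18, so leaving it out raises the difference by construction. Nlrp3, an inflammasome sensor, had 45 counts in each group, with 27 of the DHT counts in DHT replicate 2. Pycard, the adaptor that joins sensors to Casp1, was at 11.2 ± 1.2 and 9.97 ± 2.30 CPM (n = 3 each).

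Nlrp6, a sensor of the same family, was far above Nlrp3 in counts and lay lower in DHT, at 98.1, 67.4 and 76.4 CPM in DHT replicates 1, 2 and 3 and 112, 132 and 115 CPM in controls 1, 2 and 3. Its log2 fold change was -0.57 ± 0.16 SE (edgeR adjusted p = 0.0773). Nlrp6 passed with DESeq2 (adjusted p = 0.0262), total counts (0.0475) and no low-count filter (0.04). Its range over leave-one-out fits was 0.0924 to 0.228. The sign of Nlrp6 was negative in all 14 other settings. Of the other gasdermins, Gsdmc had 0 counts and Gsdma 1 in all, and Gsdme, listed as Dfna5, was at 8.43 ± 0.796 and 6.92 ± 1.06 CPM.

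Beside Casp12, 0 of 12 genes of ER stress and calpain were called (3 with an unadjusted p under 0.05, 2 higher and 1 lower), with a median of 0.03, and DESeq2 and limma-voom called 0. The edgeR shares over all genes tested were 2.84% called and 23.9% under that unadjusted p. Atf4, a transcription factor made under ER stress, averaged 119 ± 6.97 CPM with DHT against 95.8 ± 7.02 CPM in control, without overlap (log2 fold change 0.32 ± 0.11 SE, edgeR adjusted p = 0.138). Xbp1, whose RNA the ER sensor IRE1 splices, was at 152 ± 21.5 and 118 ± 17.3 CPM, with an edgeR adjusted p of 0.192. The sensor genes Eif2ak3 and Ern1 both differed by -0.35 log2, with edgeR adjusted p = 0.167 and 0.338. Ddit3, the ER stress factor CHOP, was at 13.3 ± 5.36 and 11.8 ± 4.29 CPM, with its highest values in DHT replicate 3 and control replicate 3.

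The ESCRT genes, which repair membranes opened by MLKL or gasdermin D, held 0 called of 10 (1 with an unadjusted p under 0.05, higher), with a median of 0.16. Of all genes tested, 2.84% were called and 23.9% were under that unadjusted p. Chmp2a, an ESCRT-III subunit, measured 123, 111 and 125 CPM with DHT against 92.4, 93.0 and 85.9 CPM in control, without overlap (log2 fold change 0.41 ± 0.11 SE, edgeR adjusted p = 0.0741, DESeq2 0.0302). Chmp3, another subunit, was at 127 ± 4.10 and 114 ± 1.28 CPM, and Vps4a, the ATPase that recycles ESCRT-III, at 57.6 ± 7.22 and 49.3 ± 2.56 CPM (edgeR adjusted p = 0.374 and 0.297).

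**Figure D5:**
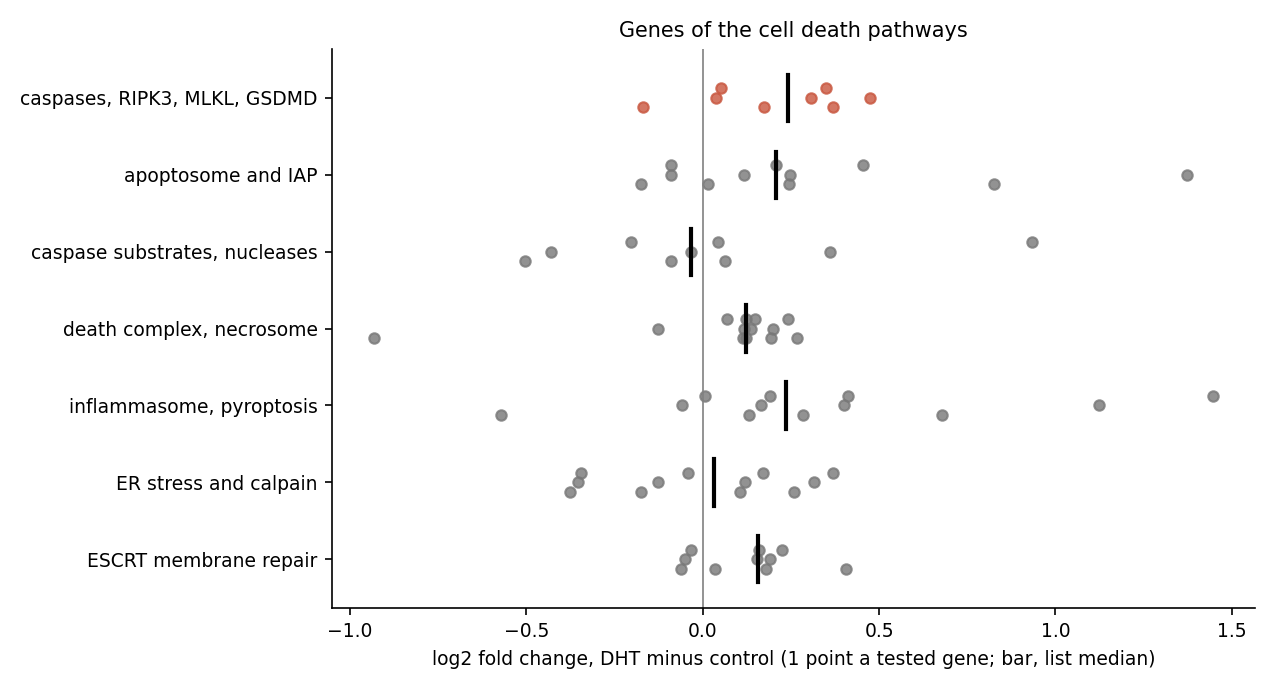
Each point is the log2 fold change, DHT minus control, of 1 tested gene, and each bar the median of its list; the 8 members are in red. The medians drawn lie between -0.03 and 0.24, and the largest single values drawn are Il1b at 1.45 and Birc5 at 1.37.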

How the data were processed

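The authors deposited raw counts by gene symbol, not normalized, 1 column per library, in 46095 rows of which 20681 have no count. HISAT2 2.0 and the build mm10 are named, per the submitters' processing notes; counting tool, annotation, strand setting and filters: not given in the sources used here. Columns were matched to samples by title.

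The test was run in edgeR 4.0.16 under R 4.3.3: filterByExpr (minimum count 10, minimum total 15), TMM, a robust quasi-likelihood fit on group, Benjamini-Hochberg adjustment over 15367 genes at 0.05. SE are those the F statistic implies, and 95% intervals use its degrees of freedom. Pearson r used log2 CPM with a prior count of 2. DESeq2 1.42.0 and limma 3.58.1 (voom) were alternatives, with other scalings and filters, no robust step, a replicate block and leaving out each library. The fit was tested on simulated data. Exonic lengths and positions are from GENCODE on GRCm38 by symbol, promoters from RefSeq, and transcript similarity from BLAST 2.17.0+. Same-numbered libraries did not deviate together (r 0.07, -0.15 and 0.04), so numbers were not taken as pairs.

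Members, lists and tests were chosen with earlier results of these data known. Named genes were all members, each list's called genes and up to 3 of smallest p, direct partners of the members, and for each member the 2 genes most like it. Results for some listed genes are left out here.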

Additional observations from a re-analysis of the deposited data

How the results depend on the processing

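The number of members called was 0 under all 15 alternatives, including an adjusted p of 0.1. Over all genes the number called was 437, and 852 with no low-count filter, 1533 with DESeq2, 1528 at an adjusted p of 0.1 and 0 to 1224 without single libraries. With the replicate block it was 85. The numbers were not taken as pairs, and the block changed no member's call. DESeq2 called 1 apoptosome gene, 2 caspase substrates (1 in each direction), 1 inflammasome gene and 1 ESCRT gene. The inflammasome list also held 1 call with total counts and 1 with no low-count filter. Without single libraries the apoptosome and substrate lists held 0 to 1 each, the 1 being without DHT replicate 2. The fit without that library called 7.76% of all genes tested. The other lists held 0. Signs of small differences turned. With total counts Casp6 was at -0.0673, Gsdmd at -0.00986 and Fadd at -0.0343; with limma-voom Gsdmd was at -0.16 and Nlrp3 at -0.0439; with the replicate block Gsdmd was at -0.13. Without single libraries log2 fold changes ran from -0.25 to 0.73 for Casp1, -0.0457 to 0.11 for Casp6, -0.90 to 0.13 for Casp12, -0.11 to 0.63 for Mlkl, -0.72 to 0.33 for Gsdmd, -0.00928 to 0.57 for Casp4, -0.0154 to 0.13 for Fadd, -0.57 to 0.56 for Nlrp3, -0.16 to 0.59 for Zbp1 and -0.21 to 0.50 for Ddit3. The cause was not tested. Casp8, Casp9 and Ripk3 kept their sign in all 14 alternatives that refit them. Depth limits Ripk3 most, with 116 counts in all.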
